A study of Mus musculus with 12 samples.

Results

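The E2F family comprises the 8 transcription factor genes E2f1 to E2f8, whose products bind the promoters of genes needed for DNA replication and mitosis. All 8 rows, of 26608 genes listed, were taken by symbol from RNA sequencing counts of CD4+ YFP(FOXP3)- T cells and were followed across 3 groups of mice. Every member had reads in all 12 libraries and passed the filter on low counts. The family was divided by known function into the activators E2f1, E2f2, and E2f3, the canonical repressors E2f4, E2f5, and E2f6, and the atypical repressors E2f7 and E2f8.

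In a resting lymphocyte, E2F4 and E2F5 sit on cell cycle promoters together with a DP partner and a pocket protein (RB, p107, or p130) and keep those genes off. When a T cell is stimulated to divide, cyclin-dependent kinases inactivate the pocket proteins, and the activators, which the pocket proteins had restrained, switch on the genes of DNA synthesis. E2F7 and E2F8, which bind DNA without a DP partner, are themselves made late in this wave and turn the same genes down again, whereas E2F6 represses through polycomb proteins and does not bind pocket proteins.

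The groups were Foxp3Cre WT mice and Foxp3Cre Tet2/3 flox/flox mice called DKO-moderate or DKO-severe, with 4 libraries each, all from animals 14 weeks old. All 3 groups, WT included, carried the Foxp3 allele that encodes a fusion of YFP and Cre, on the B6 background. In the DKO groups the TET2 and TET3 methylcytosine dioxygenases are deleted in regulatory T cells, which express Foxp3. According to the study's methods, a DKO mouse was placed in the moderate or the severe group by its number of splenocytes and peripheral lymphocytes, so the groups differ by an outcome of the disease and not by genotype. Cells of the spleen and of the cervical and inguinal lymph nodes were pooled before the sort. According to the study, the sorted WT cells were mostly naive T cells, and the naive share was lower in DKO mice, above all in DKO-severe. The study describes the DKO population as a likely mix of former regulatory T cells that had lost FOXP3 and mostly activated or memory conventional CD4+ T cells. Activity of Foxp3Cre outside regulatory T cells has been described. The p-values measure the spread between libraries. In bulk samples, a larger share of cycling cells and more RNA per cycling cell cannot be told apart.

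Reads on genes ranged from 29254260 to 42133536 per library. Levels are given as CPM, the reads of a gene per scaled library total. The 8 CD4 T cell markers summed to between 4343 and 5493 CPM in every library. The 4 Y-linked genes summed to at most 0.571 CPM in WT library 2, DKO-moderate libraries 2 and 4, and DKO-severe library 3. In the other libraries they summed to between 370 and 556 CPM, so each group held both sexes. According to the study, DKO-severe mice were more often female than DKO-moderate mice. Tet3 read 195 ± 19.6 CPM for WT, 138 ± 45.5 for DKO-moderate, and 96.0 ± 6.37 for DKO-severe (SD, n = 4), and Tet2 read 52.0 ± 8.05, 50.3 ± 10.5, and 60.7 ± 4.47 CPM. Counts per gene do not isolate the floxed exons, so they do not check the deletion. The 9 mature neutrophil markers, all with reads in every group, summed to between 9.80 and 28.4 CPM in the 8 WT and DKO-moderate libraries, but to 2292, 855, 44.5, and 26.4 CPM in DKO-severe libraries 1 to 4. The 8 B cell markers, also all with reads in every group, summed to between 6.81 and 212 CPM for WT, 21.5 and 47.5 for DKO-moderate, and 70.4 and 383 for DKO-severe. The 6 plasma cell markers summed to 49.2 to 147 CPM for WT, 76.1 to 126 for DKO-moderate, and 191 to 358 for DKO-severe, whose libraries stood above all others, and the 8 monocyte and macrophage markers to 11.9 to 204, 30.2 to 84.1, and 78.8 to 447 CPM. All markers of both lists had reads in every group. The 6 neutrophil precursor markers summed to at most 0.0323 CPM for WT, 0.186 to 12.2 for DKO-moderate, and 1.83 to 18.8 for DKO-severe. The value of 12.2 belongs to DKO-moderate library 4. Of these 6 genes, 3 had no reads in WT and 1 had none in DKO-moderate. The 6 germinal centre B cell markers summed to 42.1 to 51.5, 55.0 to 68.1, and 53.4 to 85.0 CPM. Of those, 2 had no reads in DKO-moderate.

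Because E2F genes are known to be E2F targets themselves, the start regions of the members were read for the letters that E2F and mitotic complexes bind. RefSeq windows (GRCm38.p6) from 250 bases before to 50 bases after an annotated start were held for 6 of the 8 members, E2f1, E2f2, E2f3, E2f6, E2f7, and E2f8. The E2F consensus was searched as TTTCCCGC, TTTCGCGC, TTTGCCGC, and TTTGGCGC on both strands. It was found for 3 of these 6, namely E2f2, E2f3, and E2f7, against 2.6% of the 27025 genes with a window of that length. The mitotic CHR element (TTTGAA, both strands) was found in a window of E2f2, E2f3, and E2f8, against 20.2% of genes. For E2f2 it was only in a second window, at the start of a noncoding transcript inside the gene. The CCAAT box (both strands) was found for E2f2, E2f3, E2f7, and E2f8, against 41.1%. The window for E2f1 lies 294 bases from the nearest start in the GENCODE annotation, inside the gene, and holds none of these letters. The E2f6 window, the only one from a canonical repressor, holds none of them either. E2f8 has another protein-coding start in GENCODE, at chr7:48881041, which its window does not cover and which was not searched. Below, capitals mark these matches, read 5′ to 3′ along the strand of the gene, and each stretch is shown because its gene rose (E2f2, E2f3, E2f7, E2f8) or, for E2f6, because it did not pass the test. No 2 matches overlapped in these windows. A match describes letters and is not a measurement of binding.
E2f2, 30 bases after the RefSeq start, chr4:136172294-136172323, plus strand: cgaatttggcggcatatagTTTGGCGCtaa
E2f3, 150 bases before the start, chr13:29986064-29986213, minus strand: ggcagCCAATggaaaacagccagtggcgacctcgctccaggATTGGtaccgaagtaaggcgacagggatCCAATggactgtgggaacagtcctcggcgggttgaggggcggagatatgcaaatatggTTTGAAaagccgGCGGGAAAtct
E2f7, 250 bases before the start, chr10:110745189-110745438, plus strand: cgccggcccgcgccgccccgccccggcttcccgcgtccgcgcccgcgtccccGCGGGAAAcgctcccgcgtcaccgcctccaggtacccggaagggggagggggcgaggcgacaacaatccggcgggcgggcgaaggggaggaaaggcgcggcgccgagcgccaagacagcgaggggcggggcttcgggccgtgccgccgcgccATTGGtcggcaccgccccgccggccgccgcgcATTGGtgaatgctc
E2f8, 150 bases before the start, chr7:48881597-48881746, minus strand: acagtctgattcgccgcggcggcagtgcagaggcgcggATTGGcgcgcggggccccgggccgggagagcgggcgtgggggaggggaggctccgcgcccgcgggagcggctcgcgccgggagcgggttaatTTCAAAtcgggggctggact
E2f6, 150 bases before the start, chr12:16810815-16810964, plus strand: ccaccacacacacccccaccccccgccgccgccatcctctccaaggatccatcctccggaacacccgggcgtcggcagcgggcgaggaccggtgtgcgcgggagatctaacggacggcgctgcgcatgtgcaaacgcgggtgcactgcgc

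In E2f3 the CHR letters begin 23 bases and the E2F letters 11 bases before the start, and in E2f8 the CHR letters begin 20 bases before it. In E2f7 the E2F letters begin 198 bases before the start, and in E2f2 they begin 40 bases after the RefSeq start. That RefSeq start lies 120 bases before the nearest GENCODE start, so the E2f2 match lies before the gene as GENCODE places it.

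In DKO-severe cells all 3 activators and both atypical repressors rose against WT, and none of the 3 canonical repressors passed the test (edgeR, 0 at an unadjusted p under 0.05; DESeq2 called E2f4 and E2f6, at 0.10 and 0.23, and limma voom E2f6, at 0.18). The 5 members called were all higher, against 52.6% of the 16035 genes tested that were called in either direction and 26.6% that were called higher (edgeR's quasi-likelihood test with Benjamini-Hochberg adjustment over all genes tested, threshold 0.05). The libraries of the groups did not overlap for 6 of 8 members, against 51.9% of all genes tested. Because so many genes differed in this comparison, a call by itself sets a member little apart, and the sizes carry more of the description. The atypical repressors changed by 3.32 and 3.47 on the log2 scale and the activators by 0.99 to 2.03, whereas the canonical repressors lay between -0.23 and 0.15, and the median over all genes tested was -0.01.

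**Figure D1:**
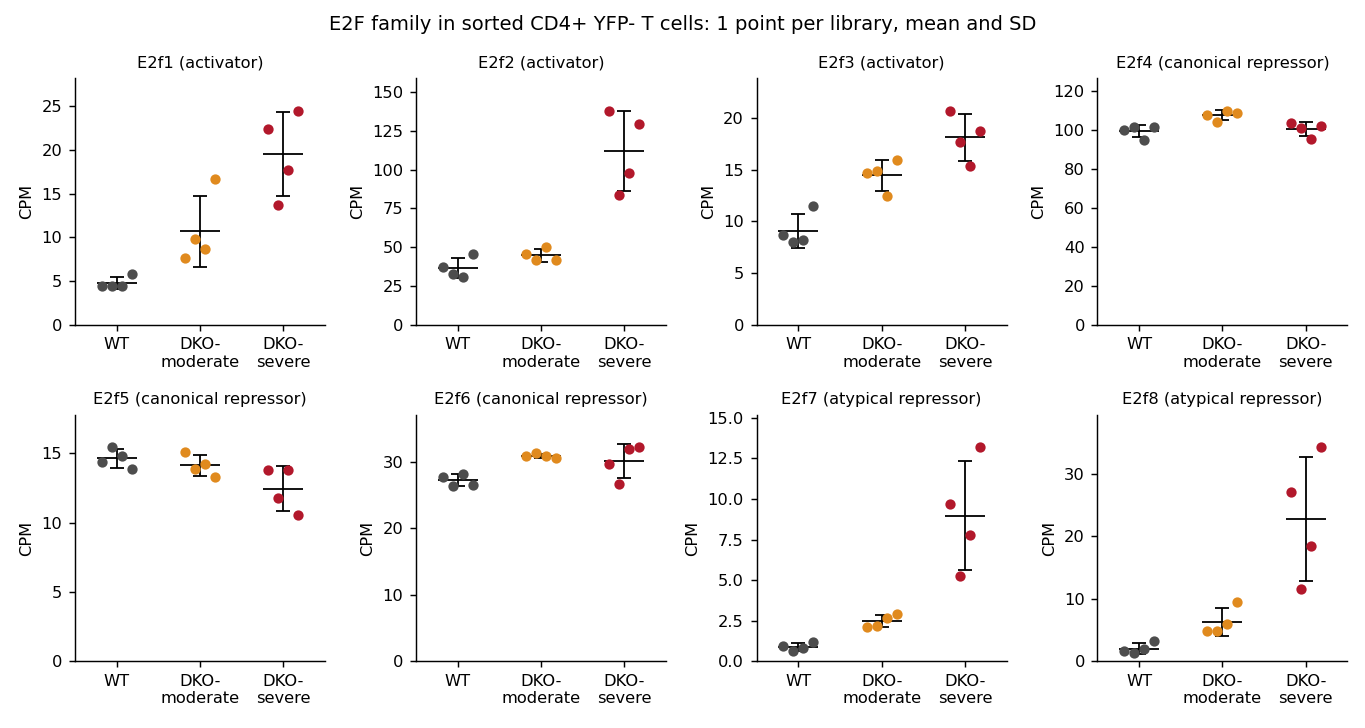
CPM of each E2F family member (y axis, from 0, scaled separately for each gene) in the 4 WT, 4 DKO-moderate, and 4 DKO-severe libraries, with 1 point per library and bars for the mean and SD. E2f7 and E2f8 rise from means of 0.893 and 2.06 CPM in WT to 8.97 and 22.8 in DKO-severe, and E2f4 stays between 95.2 and 110 CPM in every library.

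E2f1, at chr2:154559407-154569892 on the minus strand (GRCm38), encodes the activator that is also known for inducing cell death genes. It read 4.48, 4.39, 4.46, and 5.85 CPM in the WT libraries, 7.66, 9.77, 8.64, and 16.6 in those of DKO-moderate, and 22.3, 13.7, 17.7, and 24.5 in those of DKO-severe. Every DKO library was above every WT library, whereas DKO-moderate library 4 lay within the DKO-severe range. Against WT the log2 fold change was 2.03 (SE 0.26, adjusted p = 6.74e-05, edgeR) in DKO-severe and 1.15 (SE 0.26, adjusted p = 0.00983) in DKO-moderate.

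E2f2, at chr4:136172394-136196057 on the plus strand, is the activator with the most RNA per length in these cells, and mice lacking it are known for hyperactive T cells. The WT libraries held 37.4, 33.0, 30.7, and 45.3 CPM, the DKO-moderate libraries 45.6, 41.4, 50.1, and 41.9, and the DKO-severe libraries 138, 83.3, 97.6, and 129. The WT and DKO-moderate libraries overlapped, and all 4 DKO-severe libraries stood above both. The change was 1.61 (SE 0.17, adjusted p = 1.73e-05) in DKO-severe against WT. In DKO-moderate it was 0.29 (SE 0.16, 95% interval -0.07 to 0.64, adjusted p = 0.242), and the upper end of the interval is 56.3% higher.

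E2f3, at chr13:29906575-29986063 on the minus strand, encodes the activator made from 2 start sites as E2F3A and E2F3B, which counts per gene do not separate. Its CPM was 8.68, 8.0, 8.19, and 11.5 for WT, 14.6, 14.8, 12.4, and 16.0 for DKO-moderate, and 20.7, 17.7, 15.4, and 18.7 for DKO-severe. All DKO libraries exceeded all WT libraries, and the DKO groups overlapped. The log2 fold change against WT was 0.99 (SE 0.15, adjusted p = 0.00019) in DKO-severe and 0.67 (SE 0.15, adjusted p = 0.00986) in DKO-moderate.

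E2f7, at chr10:110745439-110787384 on the plus strand, had the fewest reads of the family, from 19 to 43 per WT library and from 172 to 551 per DKO-severe library. It measured 0.948, 0.613, 0.834, and 1.18 CPM for WT, 2.13, 2.17, 2.68, and 2.91 for DKO-moderate, and 9.67, 5.24, 7.78, and 13.2 for DKO-severe. The 3 groups were fully separated in the order WT, DKO-moderate, DKO-severe. The log2 fold change against WT was 3.32 (SE 0.32, adjusted p = 1.16e-05) in DKO-severe and 1.47 (SE 0.30, adjusted p = 0.00638) in DKO-moderate.

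E2f8, at chr7:48866429-48881596 on the minus strand, encodes the partner with which E2F7 forms dimers. It measured 1.61, 1.39, 2.04, and 3.20 CPM for WT, 4.89, 4.89, 5.99, and 9.56 for DKO-moderate, and 27.1, 11.5, 18.5, and 34.3 for DKO-severe. As for E2f7, the groups were fully separated, and library 2 was the lowest and library 4 the highest of DKO-severe for both genes. The change was 3.47 (SE 0.39, adjusted p = 3.01e-05), or 11.1-fold, in DKO-severe and 1.62 (SE 0.37, adjusted p = 0.0114) in DKO-moderate. The transcripts annotated opposite E2f7 and E2f8 on the other strand, 1700020G17Rik and Gm2788, had no reads and at most 0.422 CPM, and the authors counted with strand.

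E2f4, at chr8:105297663-105305370 on the plus strand, is the main E2F of resting cells and had the most RNA per length of the family. The WT libraries held 99.9, 102, 95.2, and 102 CPM, the DKO-moderate libraries 108, 104, 110, and 109, and the DKO-severe libraries 104, 101, 95.4, and 102. The DKO-severe and WT libraries overlapped, with a log2 fold change of 0.02 (SE 0.06, 95% interval -0.11 to 0.14, adjusted p = 0.832), so that the interval runs from 7.28% lower to 10.2% higher. All 4 DKO-moderate libraries lay above the WT range, by 0.12 on the log2 scale (SE 0.06, adjusted p = 0.185). Under scaling by library size alone, which moved the median of all genes by 0.18 in DKO-severe, E2f4 passed the threshold in both groups, at 0.20 and 0.19.

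E2f5, at chr3:14578641-14606309 on the plus strand, encodes the second E2F that acts mainly with p130. Its CPM was 14.4, 15.4, 14.8, and 13.9 for WT, 15.1, 13.9, 14.2, and 13.3 for DKO-moderate, and 13.8, 11.8, 13.8, and 10.5 for DKO-severe. The DKO-severe libraries all lay below the WT libraries, in a fit that gave -0.23 (SE 0.11, 95% interval -0.48 to 0.02, adjusted p = 0.106). The DKO-moderate value was -0.05 (SE 0.11, adjusted p = 0.796), with overlapping libraries.

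E2f6, at chr12:16810963-16839742 on the plus strand, encodes the repressor of the PRC1.6 polycomb complex. Its CPM was 27.8, 26.5, 28.2, and 26.6 for WT, 30.9, 31.3, 30.8, and 30.6 for DKO-moderate, and 29.7, 26.7, 32.0, and 32.2 for DKO-severe. The WT libraries overlapped with DKO-severe and lay below DKO-moderate. The log2 fold change was 0.15 (SE 0.08, 95% interval -0.03 to 0.32, adjusted p = 0.137) in DKO-severe and 0.18 (SE 0.08, interval 0.01 to 0.35, adjusted p = 0.133) in DKO-moderate. In DKO-severe E2f6 passed in 5 of 25 other fits, at 0.18 to 0.33, among them DESeq2 at 0.23 (adjusted p = 0.00594).

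In DKO-moderate 4 of the 8 members rose, namely E2f1, E2f3, E2f7, and E2f8, against 17.1% of all genes called in either direction and 12.3% called higher. Libraries did not overlap for 6 members, E2f4 and E2f6 in addition to these, against 24.8% of all genes. DESeq2 called 6 members, E2f4 at 0.12 (adjusted p = 0.0157) and E2f6 at 0.19 (adjusted p = 0.0473) besides these 4, and scaling by library size alone called the same 6. The comparison uses the same WT libraries as that of DKO-severe, so the values are set side by side without a test of their likeness. The DKO-moderate change amounted to 56.9% of the DKO-severe change on the log2 scale for E2f1, 67.3% for E2f3, 44.1% for E2f7, and 46.6% for E2f8, but to 17.9% for E2f2.

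Between the DKO groups, E2f2 had the smallest standard error among the members that differed. DKO-severe exceeded DKO-moderate by 1.32 on the log2 scale for E2f2 (SE 0.17, adjusted p = 0.00203), 1.86 for E2f7 (SE 0.29, adjusted p = 0.00368), 1.85 for E2f8 (SE 0.36, adjusted p = 0.00692), and 0.87 for E2f1 (SE 0.25, adjusted p = 0.0304). These 4 of 8 members compare with 20.1% of all genes called in either direction and 9.41% called higher, and the libraries of 4 members, E2f2, E2f7, E2f8, and, lower in DKO-severe, E2f4, did not overlap, against 21.3%. E2f3 differed by 0.32 (SE 0.15, 95% interval 0.00 to 0.64, adjusted p = 0.132). The E2f1 call was lost without DKO-moderate library 1, 2, or 3 or DKO-severe library 1 or 4, with log2 fold changes from 0.74 to 0.83 and adjusted p from 0.0575 to 0.0905. In exact permutation tests of CPM, of 24 computed, two-sided and unadjusted, E2f2, E2f7, and E2f8 reached 0.029, the smallest p that 4 against 4 libraries allow, as did E2f4, which was lower in DKO-severe, and E2f1 and E2f3 gave 0.057.

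**Figure D2:**
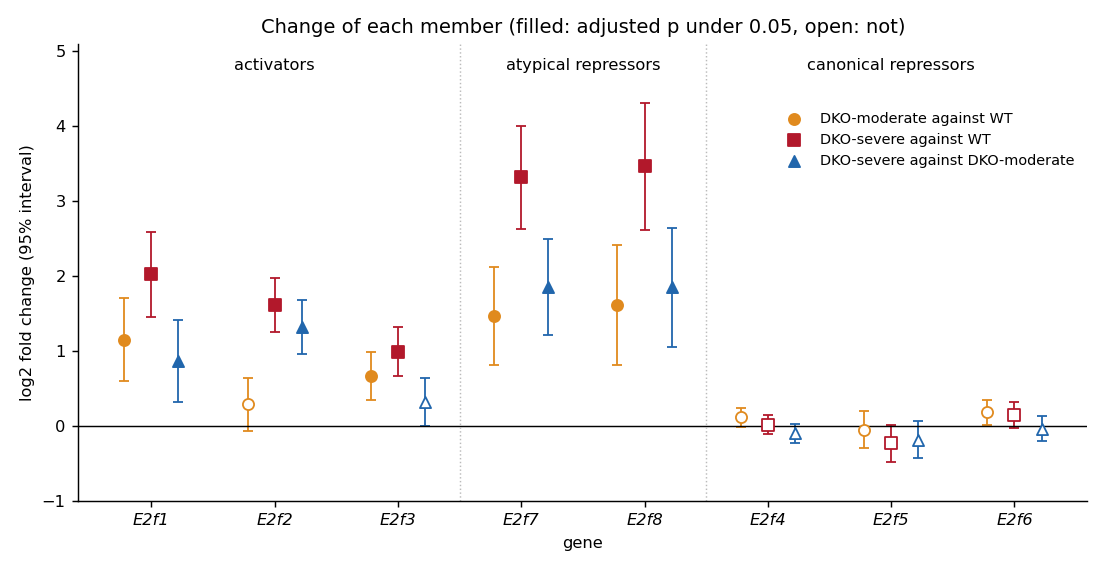
Log2 fold change of each member (y axis) with its 95% interval, for DKO-moderate against WT (circles), DKO-severe against WT (squares), and DKO-severe against DKO-moderate (triangles), filled where the adjusted p was under 0.05. E2f2 is open at 0.29 in DKO-moderate and filled at 1.61 in DKO-severe, and all 9 symbols of E2f4, E2f5, and E2f6 are open.

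Several lists of markers of other cell types had higher medians in DKO-severe than in WT. Libraries of DKO-severe and WT overlapped for B cell, monocyte, and erythroid markers. CD8 T cell markers were lower, at a median of 18.5 CPM in WT and 4.48 in DKO-severe. The values of E2f8 in the DKO-severe libraries are given beside marker levels. Libraries 3 and 4, with 44.5 and 26.4 CPM of neutrophil markers, held 18.5 and 34.3 CPM of E2f8, and libraries 1 and 2, with 2292 and 855 CPM, held 27.1 and 11.5. Libraries 3 and 4 also held 191 and 204 CPM of plasma cell markers and 70.4 and 154 CPM of B cell markers. With DKO-severe libraries 1 and 2 and WT library 3, which had the most B cell reads of WT, all left out, DKO-severe exceeded WT by 2.10 for E2f1, 1.56 for E2f2, 0.86 for E2f3, 3.51 for E2f7, and 3.67 for E2f8 on the log2 scale, and the same 5 members passed (a choice made after seeing the data). Between the DKO groups E2f1 then missed the threshold, at 0.98 (adjusted p = 0.0581). The part of plasma cells, monocytes, neutrophil precursors, and germinal centre B cells in the change was not tested. With terms for the neutrophil and B cell markers E2f3 missed the threshold in DKO-severe against WT, at 0.79 (adjusted p = 0.0510). The 10 erythroid markers summed to 6.19 to 21.1 CPM in WT, at most 10.8 in DKO-moderate, and between 12.3 and 35.2 in DKO-severe. Only E2f2 passed with the neutrophil and B cell terms in DKO-severe against DKO-moderate. No member passed there with a term for the 9 of these erythroid markers that were tested. With the erythroid term 3 members had an unadjusted p under 0.05, and 6 of all genes passed (edgeR).

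Expressed as RPKM, that is CPM divided by the exon length in kilobases, which allows levels to be compared between genes, the family was dominated by E2f4 in every library. In WT the order was E2f4 at 40.6 ± 1.25 RPKM, E2f5 at 8.20 ± 0.369, E2f2 at 7.50 ± 1.32, E2f6 at 4.81 ± 0.154, E2f3 at 1.68 ± 0.303, E2f1 at 1.52 ± 0.223, E2f8 at 0.378 ± 0.148, and E2f7 at 0.0991 ± 0.0260 (SD, n = 4). E2f5 and E2f2 overlapped in WT, as did E2f3 and E2f1. In DKO-severe E2f2, at 22.9 ± 5.29 RPKM, stood clear of E2f5 at 6.99 ± 0.893. E2f5, E2f1, E2f6, E2f8, and E2f3 formed a run of neighbours with overlapping libraries, from 6.99 down to 3.34 RPKM, and E2f7 remained lowest at 0.996 ± 0.372 RPKM.

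The shares of the classes differed between the groups. The activators made up 16.5 ± 2.19% of the summed RPKM of the 8 members for WT, 20.5 ± 1.03% for DKO-moderate, and 35.4 ± 3.87% for DKO-severe. The share of the canonical repressors went from 82.8 ± 2.39% through 77.5 ± 1.58% to 59.1 ± 5.58%, at a summed level of 53.6 ± 1.12, 57.4 ± 1.12, and 53.4 ± 1.37 RPKM. The atypical repressors amounted to 4.40 ± 0.999% of the activators for WT, 9.33 ± 2.12% for DKO-moderate, and 15.5 ± 3.96% for DKO-severe, with the lowest DKO-severe library at 10.9% and the highest WT library at 5.41%. These shares are descriptions without a test, and they depend on the lengths taken from GENCODE, since the annotation behind the counts was not given in the sources used here.

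**Figure D3:**
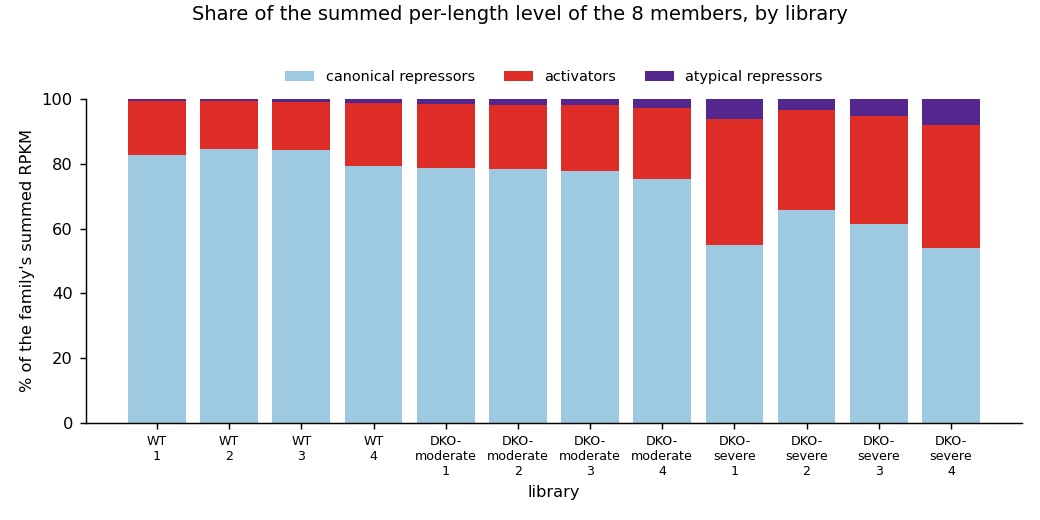
Percent of the summed RPKM of the 8 members (y axis, 0 to 100) that falls to canonical repressors, activators, and atypical repressors in each of the 12 libraries (x axis). The activator segment covers 14.9% to 19.5% in the WT libraries and 30.8% to 39.0% in the DKO-severe libraries.

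Of the proteins that E2Fs need or that restrain them, the DP partners rose and the pocket proteins did not pass. Tfdp1, which encodes the dimer partner DP1, rose from 49.4 ± 4.88 CPM in WT to 71.3 ± 3.04 in DKO-moderate and 98.5 ± 14.0 in DKO-severe (SD, n = 4). Its log2 fold change was 0.53 (SE 0.10, adjusted p = 0.0053, edgeR) in DKO-moderate and 1.0 (SE 0.11, adjusted p = 1.95e-05) in DKO-severe. Tfdp2, encoding DP2, rose by 0.92 in DKO-severe (SE 0.13, adjusted p = 0.000113) and, like E2f2, did not pass in DKO-moderate, at 0.24 (SE 0.13, adjusted p = 0.211). In DKO-severe against DKO-moderate both DP partners passed, Tfdp1 at 0.47 and Tfdp2 at 0.68 (SE 0.13, adjusted p = 0.00581). None of the 3 pocket protein genes passed in any comparison, with 0 at an unadjusted p under 0.05 in edgeR and 0 called by DESeq2 or limma voom. In DKO-severe against WT the values were 0.03 (SE 0.14) for Rb1, -0.10 (SE 0.12) for Rbl1, which encodes p107, and -0.21 (SE 0.12) for Rbl2, which encodes p130.

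The MuvB core, which with p130 and E2F4 forms the repressive DREAM complex and with B-Myb or FoxM1 switches to activating mitotic genes, showed the same division. The 5 core genes Lin9, Lin37, Lin52, Lin54, and Rbbp4 passed in no comparison, likewise with 0 at an unadjusted p under 0.05 and 0 by DESeq2 or limma voom, with log2 fold changes between -0.27 and 0.07 in DKO-severe against WT. Its activating partners rose in all 3 comparisons. Mybl2, which encodes B-Myb, read 2.10 to 3.50 CPM in WT, 5.0 to 9.64 in DKO-moderate, and 13.2 to 32.4 in DKO-severe (3.14, SE 0.32, adjusted p = 1.61e-05 in DKO-severe against WT). Foxm1 read 2.73 to 5.38, 8.08 to 12.5, and 15.6 to 39.5 CPM (2.65, SE 0.29, adjusted p = 2.43e-05).

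Of the 6 genes of the E2F6 polycomb complex, 4 fell in DKO-severe against WT, where 52.6% of all genes were called in either direction. DESeq2 called 3 and limma voom 5 of the 6. Mga fell by 0.53 (SE 0.17, adjusted p = 0.0219), Pcgf6 by 0.43 (SE 0.09, adjusted p = 0.00143), L3mbtl2 by 0.36 (SE 0.08, adjusted p = 0.00276), and Rnf2 by 0.32 (SE 0.11, adjusted p = 0.0314), all on the log2 scale. Max, at -0.27, and Cbx3, at -0.01, did not pass, and none of the 6 passed in DKO-moderate against WT (edgeR, 1 at an unadjusted p under 0.05, and 1 called by DESeq2 and 0 by limma voom). Between the DKO groups edgeR called 2, DESeq2 0, and limma voom 4.

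Genes that E2Fs are known to control were described in 2 lists, those of DNA synthesis and those of mitosis. Of 26 G1/S genes, 22 rose and none fell in DKO-severe, with a median log2 fold change of 1.41, and 15 rose and none fell in DKO-moderate, with a median of 0.66. Of all genes tested, 26.6% were called higher in DKO-severe against WT and 12.3% in DKO-moderate against WT. The medians over all genes were -0.01 and 0. The highest in DKO-severe were Ccne2, encoding cyclin E2, at 3.17 (SE 0.30), Tk1, encoding thymidine kinase, at 3.12 (SE 0.36), and the histone chaperone gene Chaf1a at 2.92 (SE 0.31). The lowest were Cdt1, needed to license replication origins, at -0.01 (SE 0.09), the maintenance methyltransferase gene Dnmt1 at 0.03 (SE 0.13), and the phosphatase gene Cdc25a at 0.15 (SE 0.10), none of which passed in any comparison. The fourth G1/S gene that did not pass in DKO-severe, named after its values were seen, was Chaf1b, at 0.30 (adjusted p = 0.126).

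Of 24 G2/M genes that the DREAM complex represses, 24 rose in DKO-severe, with a median of 3.06, and 23 rose in DKO-moderate, with a median of 1.57. The shares of all genes called higher were 26.6% and 12.3%. The highest in DKO-severe were the spindle checkpoint kinase gene Bub1 at 3.49 (SE 0.33), Cdk1, the kinase that drives mitosis, at 3.47 (SE 0.44), and its activating phosphatase gene Cdc25c at 3.43 (SE 0.45). The lowest were the centromere histone gene Cenpa at 1.26 (SE 0.17), Kif23 at 1.34 (SE 0.25), and Aurka at 2.18 (SE 0.33). E2f7 and E2f8, at 3.32 and 3.47, thus lay near the upper end of the G2/M genes, which ran from 1.26 to 3.49. E2f1, E2f2, and E2f3, at 2.03, 1.61, and 0.99, lay within the range of the G1/S genes, from -0.01 to 3.17. These ranges overlapped, and E2f1 and E2f2 also lay within that of the G2/M genes. The member not passing in DKO-moderate was Kif23, at 0.24 (SE 0.25, adjusted p = 0.541).

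**Figure D4:**
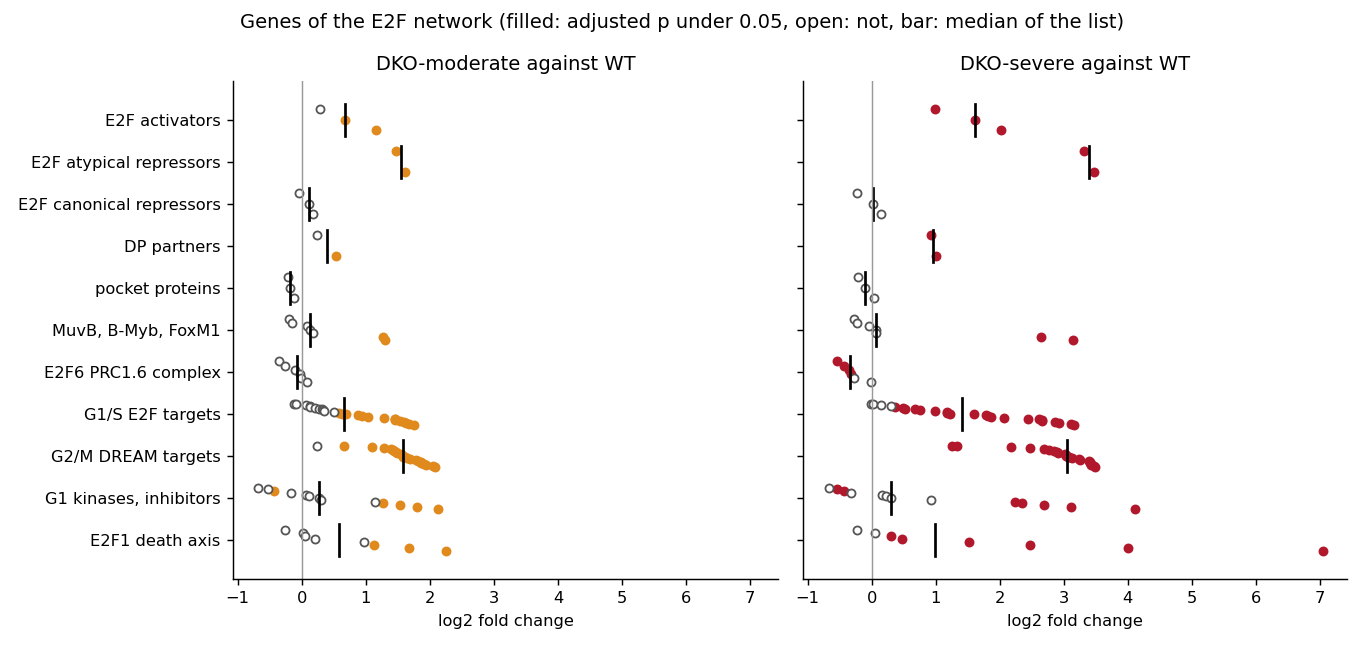
Log2 fold change (x axis, the same in both panels) of every tested gene of 11 lists around the E2F family, in DKO-moderate against WT (left) and DKO-severe against WT (right), filled where the adjusted p was under 0.05, with a bar at the median of each list. Canonical repressors, pocket proteins, and MuvB core genes gather near 0 while G2/M genes reach a median of 3.06 in DKO-severe.

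Upstream of the pocket proteins, inhibitors of cyclin-dependent kinases gave both the highest and the lowest values. Of 13 genes, 5 rose and 2 fell in DKO-severe against WT, a share near the 52.6% of all genes called. Cdkn1a, encoding p21, changed by 4.11 (SE 0.49, adjusted p = 4.21e-05), Cdkn2a, which encodes the p16 and ARF inhibitors, by 3.11 (SE 0.34, adjusted p = 2.26e-05), and Cdkn2c, encoding p18, by 2.69 (SE 0.28, adjusted p = 1.84e-05). Cdkn2a nonetheless remained at a low level, with 2.76 CPM on average in DKO-severe. Cdkn1b, encoding the quiescence inhibitor p27, fell by 0.55 (SE 0.13, adjusted p = 0.00465) and Cdkn2d, encoding p19, by 0.43 (SE 0.12, adjusted p = 0.0102), whereas Cdkn1c read -0.67 (SE 0.29, adjusted p = 0.0698). E2f7, E2f8, Cdkn1a, and Cdkn2a were already known to differ when the genes were chosen, so that their directions are not independent evidence.

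Among the 8 genes listed for the death pathway of E2F1 and p73, 6 rose in DKO-severe and 3 in DKO-moderate. Of all genes tested, 26.6% and 12.3% were called higher in these comparisons with WT. Trp73, which encodes p73 and is a direct target of E2F1, had at most 4 reads per WT library and at most 8 per DKO-moderate library, but 254, 114, 262, and 440 reads in DKO-severe libraries 1 to 4. On the CPM scale these DKO-severe values were 8.24, 3.47, 6.24, and 10.5, against 0.000 to 0.115 in WT and 0.000 to 0.212 in DKO-moderate. The groups did not overlap, with a log2 fold change of 7.04 (SE 0.83, adjusted p = 3.85e-05) against WT that depends on the handling of the few WT reads. DKO-moderate was at 0.97 (SE 0.88, adjusted p = 0.471), and the difference between the DKO groups passed (adjusted p = 0.00203). The DKO-severe libraries ranked 2, 3, 1, 4 from lowest to highest for Trp73, as they did for E2f1, E2f7, E2f8, Mki67, Mybl2, and Foxm1. E2f2 and E2f3 did not follow this order, with library 1 the highest for both. Pmaip1, encoding NOXA, rose by 4.00 (SE 0.41, adjusted p = 1.59e-05). The lowest were Bbc3, encoding PUMA, at -0.22 (SE 0.39, adjusted p = 0.646), Bcl2l11, encoding BIM, at 0.05 (SE 0.19, adjusted p = 0.844), and Ccng1 at 0.30 (SE 0.09, adjusted p = 0.0128).

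The genes most alike to each member were listed. Likeness was Pearson's r of log2 CPM over 12 libraries, among genes with a mean of at least 5 CPM, and since the 12 libraries fall into 3 groups, the same was computed on deviations from the group means. It is a description with no p. Each named gene was among the highest of up to 9996 genes, and over 12 libraries such a maximum can be high for unrelated genes. How high was not computed. Among the genes closest to E2f1 was Cdk1, with r = 0.996 over the libraries and r = 0.971 on the deviations. Others were 2010317E24Rik, Chaf1a, and Ccnb1 (0.994 to 0.993) over the libraries, and Fen1 and Tuba1b (0.970 and 0.964) on the deviations. E2f7 was closest to Diap3, Zfp367, Top2a, Kif14, and Cenpe (0.996 to 0.992), and on the deviations to Kif14, Diap3, Kif4, Espl1, and Brca1 (0.981 to 0.953). E2f8 was closest to Ncaph, Top2a, Nusap1, Ccnb2, and Fignl1 (0.997 to 0.994), and on the deviations to Ccnb2, Tpx2, Kif2c, Ncaph, and Ube2c (0.996 to 0.977). Most of these encode proteins of the mitotic chromosome or spindle.

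E2f2 and E2f3 had other neighbours, at lower r. Over the libraries E2f2 was closest to Bard1, Oxsm, Nqo2, Rbpj, and Tnfrsf1b (0.973 to 0.961), and on the deviations to Cad, Cdkn2d, Pcid2, Nol6, and Aldh18a1 (0.891 to 0.861). E2f3 was closest to Sema4c, Bcat1, Efhd2, Ptger2, and Plscr1 (0.971 to 0.962), and on the deviations to Fbxo8, Uxs1, Asb8, 2310047B19Rik, and Tmem38b (0.886 to 0.809). No G2/M gene of the fixed list was among the closest genes of either. The canonical repressors had their highest r at 0.825 for E2f4 with Rad1, 0.915 for E2f5 with Rbbp9, and 0.899 for E2f6 with Rassf5, and on the deviations at 0.854 with Dok2, 0.899 with 0610007L01Rik, and 0.889 with Brca2. The remaining 4 of each ran down to 0.798 for E2f4 (Ppil3, Oas3, Actl6a, and Lxn), 0.866 for E2f5 (Chic2, Tatdn2, Ube2d2, and 1700012B15Rik), and 0.826 for E2f6 (Arntl, Elavl1, Gm14045, and Wdyhv1).

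Among themselves, E2f7 and E2f8 were closest, with r = 0.990 over the libraries and 0.921 on the deviations from group means, and E2f1 and E2f8 followed (0.981 and 0.879). E2f1 and E2f2 gave 0.866 and 0.453. With Mki67, which encodes the Ki-67 protein of cycling cells and read 21.6 to 49.1 CPM in WT, 73.1 to 105 in DKO-moderate, and 194 to 457 in DKO-severe, r was 0.989 for E2f8, 0.987 for E2f7, 0.956 for E2f1, 0.923 for E2f2, and 0.914 for E2f3, but 0.598 for E2f6, 0.110 for E2f4, and -0.734 for E2f5. On the deviations the values for Mki67 were 0.890 for E2f8, 0.836 for E2f7, 0.647 for E2f1, 0.640 for E2f2, 0.460 for E2f3, 0.404 for E2f6, 0.211 for E2f4, and -0.474 for E2f5. The points share library depth and group, and no p is attached.

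**Figure D5:**
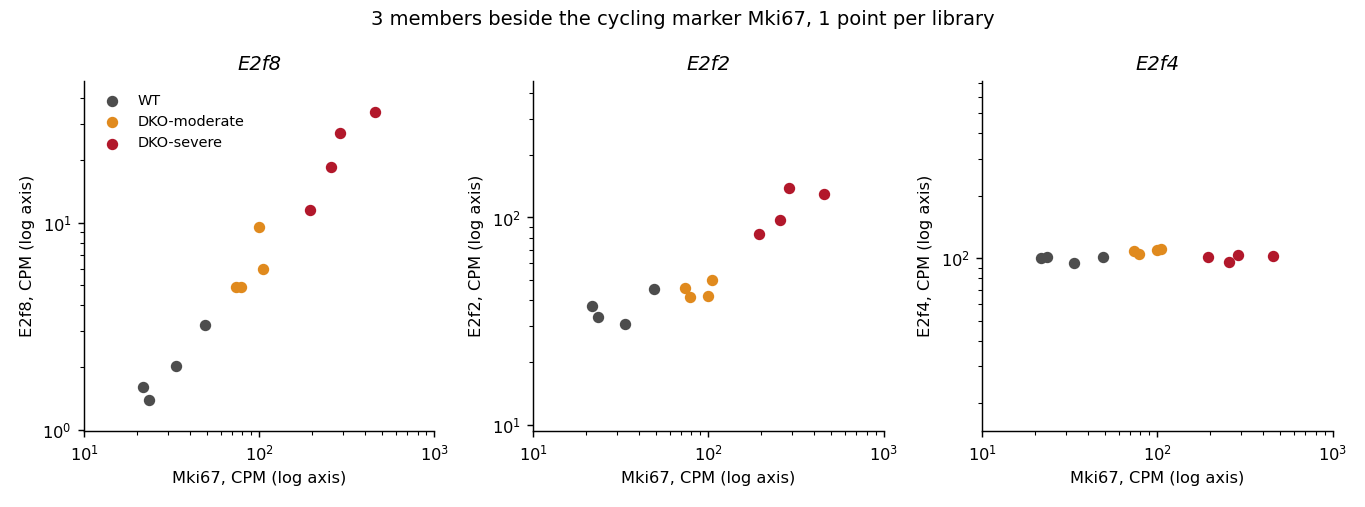
CPM of E2f8, E2f2, and E2f4 (y axes, log scale, equal span) against CPM of Mki67 (x axis, log scale) with 1 point per library, coloured by group. E2f8 climbs with Mki67 through all 3 groups, E2f2 overlaps between WT and DKO-moderate (30.7 to 50.1 CPM) and is higher in DKO-severe, and E2f4 lies between 95.2 and 110 CPM in every library.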

How the data were processed

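The 12 directional RNA-seq libraries of sorted CD4+ YFP(FOXP3)- T cells were analysed in groups of 4. The deposited values are raw read counts per gene: the authors aligned reads to mm10 with STAR 2.7.11, kept unique positions, and counted them with strand by htseq-count. Reads without a single gene (18.5% to 23.7% of those listed) were left out of all totals.

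Genes with at least 10 reads summed over a condition were kept (16035 of 26608) and fitted in edgeR 4.0.16 (R 4.3.3) with TMM scaling and the quasi-likelihood test over all 12 libraries, with group as the only term. SE is the log2 fold change divided by the root of F. CPM is TMM-scaled, RPKM uses the union of GENCODE exons (GRCm38), and log2 CPM uses a prior count of 2. Alternatives were DESeq2 1.42.0, limma 3.58.1 (voom), other scalings and filters, the compared groups alone, a replicate block, terms for Y-linked genes and for neutrophil, B cell, or erythroid markers, and each library left out in turn. CPM of 4 against 4 libraries was also compared by exact permutation, two-sided. In simulated data with 15666 genes for DKO-severe against WT, 100 genes were changed by 1 and 100 by 2 on the log2 scale, in either direction. Of these, edgeR recovered 61% and 88%. Far more genes were called in the real data, and genes with few reads were left unchanged in the simulation. These shares therefore do not give the sensitivity for the real data.

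The members, lists, and tests were chosen with earlier results of these data known. Named besides the members were their partners and, of each list of targets, upstream genes, and death genes, the 3 highest and 3 lowest genes by log2 fold change of DKO-severe against WT, and the 5 genes most like each member. Sequences come from RefSeq (GRCm38.p6). Counts per gene were used, and isoforms were not analysed here. A few genes that this rule names are not reported here.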

Additional observations from a re-analysis of the deposited data

Results flagged for a closer look

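Of 66 groups of 4 libraries checked (22 genes in 3 groups), 3 held a library that stood apart by Dixon's criterion (95%), and chance gives about 1 in 20. E2f1 in WT library 4 read 5.85 CPM, the highest of its group, where the other 3 read 4.39 to 4.48. Mybl2 in DKO-moderate library 4 read 9.64 CPM, the highest of its group, where the other 3 read 5.0 to 5.61. Lin9 in DKO-severe library 4 read 22.5 CPM, the highest of its group, where the other 3 read 15.7 to 16.2.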

How the results depend on the processing

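Of 600 member values (8 members, 3 comparisons, 25 other fits), 560 kept their direction and side of the threshold, 15 lost and 12 gained a call, and 13 changed sign, all of members that did not pass. In DKO-moderate against WT the same 4 members passed without any 1 library, and 5 to 6 passed in DKO-severe against WT. The cause of the changes below was not tested.

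With neutrophil and B cell terms all genes called fell from 8428 to 3117 in DKO-severe against WT and from 3217 to 90 between the DKO groups, where 1 member passed. With the erythroid term these counts were 3526 and 6, and 0 members passed. Between the DKO groups limma voom called 6126 genes, and 2055 were called with the 3 libraries left out together. Leaving out 1 library each gave 1616 to 2920 genes in DKO-moderate against WT, lowest without WT library 1, and 1646 to 3670 between the DKO groups, lowest without DKO-moderate library 1. Of the called genes, 50.7% were higher in DKO-severe against WT, and 66.5% were under library size alone, which also moved 46.9% to 64.9% between the DKO groups, where DESeq2 gave 59.9% and its size factors in edgeR 59.6%. Voom gave 61.1% in DKO-moderate against WT, from 72.2%. The marker terms gave 71.1% and 88.9%, and the erythroid term 66.7% between the DKO groups.

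The sign changes were small. E2f4 in DKO-severe against WT read -0.0079 with voom, -0.013 with neutrophil and B cell terms, -0.031 with the 3 libraries left out, and -0.0063 to 0.074 without 1 library each. Under library size alone E2f5 in DKO-moderate against WT read 0.028 and E2f4 between the DKO groups 0.0071. E2f6 between the DKO groups read 0.041 with DESeq2, 0.039 with its size factors, 0.069 with library size, 0.013 with 10 reads required in every library, 0.089 with the marker terms, 0.058 with the 3 libraries left out, and -0.037 to 0.055 without 1 library each. With the longest transcript as length, the atypical repressors were 6.31%, 13.2%, and 22.1% of the activators in WT, DKO-moderate, and DKO-severe.

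With the replicate number as a block (replicate block), 5, 4, and 4 members and 7794, 2201, and 2321 genes passed. Libraries of the same number did not deviate together (median r = -0.03, 12 pairs), so the numbers were not taken as pairs. Reads limit E2f7 most, with 19 to 43 per WT library.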
